A study of Mus musculus with 56 samples.

Results

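Axon guidance ligands and receptors were followed across every treatment of cultured mouse cortical neurons in the study. The set holds 47 genes. Netrins, netrin-G proteins and the netrin receptors Dcc, Neo1 and Unc5a to Unc5d form 1 group, by family and not by binding. The others are slits with Robo1 and Robo2, ephrins with Eph receptors, and semaphorins with neuropilins and plexins. All probe sets that name 1 of these genes alone were taken, and the brightest of them stood for the gene. The arrays name 23600 genes in this way, and 46 of the 47 members were found on at least 1 array type; Ephb2 was not matched on any of the 3 and was not analysed here. On the 3' arrays 46 members were present and 40 lay above the limit for dim genes, the dim ones being Epha6, Robo2, Sema3d, Sema5a, Sema5b and Slit3. On the earlier gene-level arrays 45 were present (Ntng2 was not matched) and 44 lay above it, all but Sema3d, and on the later gene-level arrays all 46 did.

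The neurons came from C57BL6 embryos of embryonic day 13 to 15, were grown for 7 days in vitro and, per the labels' protocols, received drug for 24 or 72 h; which of these times belongs to a group is stated only where a title gives it. On the 3' arrays, 3 arrays with topotecan at 300 nM stood against 3 vehicle arrays, and 3 with ICRF-193 at 3 µM against 3 vehicle arrays of their own. On the earlier gene-level arrays a dose series of topotecan had a single array at 3, 30, 150, 500 and 1000 nM, 2 arrays at 300 nM and 3 of vehicle. On the later gene-level type, topotecan at 1 µM and its vehicle had 6 arrays apiece. Irinotecan at 10 µM (3 arrays), topotecan for 24 h (1 array) and the same followed by washout (1 array), the dose of the last pair not being stated, were read against the same 2 vehicle arrays. A scrambled control shRNA (a short hairpin RNA, delivered by lentivirus) and shRNAs against Top1 and Top2b had 3 arrays apiece. DRB at 100 µM and its vehicle had 1 each, and the oxidants, hydrogen peroxide (100 µM) and paraquat (10 µM), had 1 each with 2 vehicle arrays in common. Topotecan and irinotecan are camptothecin derivatives that trap topoisomerase I on DNA, ICRF-193 is a catalytic inhibitor of topoisomerase II, and DRB blocks the kinase that releases RNA polymerase II into elongation.

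Guidance ligands are secreted or membrane-bound cues, and their receptors sit on the growth cone of an extending axon. Netrin attracts axons through Dcc and repels them where Unc5 proteins take part, slits repel axons through Robo receptors, ephrins and Eph receptors signal at contacts between cells, and semaphorins signal through plexins, with neuropilins as partners for many of the secreted ones. In the cortex these families steer callosal, corticofugal and thalamic axons, and several of them act at synapses of mature neurons. Many of these genes are long. Of the 46 members analysed, 32 span over 100 kb from the start to the end of their annotation and 14 span less, with a median of 155 kb and a range from 7.1 kb (Efnb3) to 1555.5 kb (Robo2).

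RefSeq promoter sequences (build GRCm38.p6) were held for 38 of the 47 members, and 5 of these had several entries, of which the first was used. The 250 bases before the start were searched on both strands for GGGCGG (the core of the GC box bound by Sp factors), for CCAAT and for TATAAA. Of the 38 member promoters 26 (68.4%) held GGGCGG, as did 32.9% of the 27025 promoters of the same length in the table. CCAAT was found in 11 (28.9%) against 34.5%, and TATAAA in 2 (5.26%) against 13% of all promoters. The 4 promoters shown belong to the members described array by array whose gene has a single entry: the pair that fell most and the pair that rose most with topotecan at 1 µM. Capitals mark the matches, which on the opposite strand read as the reverse complement of the motif. Epha6 (chr16:60605532-60605781, minus strand) held 15 CpG dinucleotides and Epha5 (chr5:84417383-84417632, minus strand) held 20. Efnb1 (chrX:99135811-99136060, plus strand) held 13 and Sema3d (chr5:12382916-12383165, plus strand) held 4. The median was 6 over all promoters and 18.5 over those of the members.
Epha6: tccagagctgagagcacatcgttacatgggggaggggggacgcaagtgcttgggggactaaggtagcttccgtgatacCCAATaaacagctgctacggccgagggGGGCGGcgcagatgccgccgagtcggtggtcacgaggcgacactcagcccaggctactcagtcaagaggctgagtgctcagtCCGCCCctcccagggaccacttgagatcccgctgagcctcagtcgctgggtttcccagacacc
Epha5: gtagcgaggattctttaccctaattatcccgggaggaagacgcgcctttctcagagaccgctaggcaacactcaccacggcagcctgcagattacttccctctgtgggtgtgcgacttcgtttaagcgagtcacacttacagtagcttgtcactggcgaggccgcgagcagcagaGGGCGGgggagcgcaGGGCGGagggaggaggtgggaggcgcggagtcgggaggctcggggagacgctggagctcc
Efnb1: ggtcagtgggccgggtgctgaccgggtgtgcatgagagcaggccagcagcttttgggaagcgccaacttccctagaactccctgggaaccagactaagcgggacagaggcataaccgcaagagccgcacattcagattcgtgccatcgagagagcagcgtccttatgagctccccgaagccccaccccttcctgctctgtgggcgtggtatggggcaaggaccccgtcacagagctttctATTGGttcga
Sema3d: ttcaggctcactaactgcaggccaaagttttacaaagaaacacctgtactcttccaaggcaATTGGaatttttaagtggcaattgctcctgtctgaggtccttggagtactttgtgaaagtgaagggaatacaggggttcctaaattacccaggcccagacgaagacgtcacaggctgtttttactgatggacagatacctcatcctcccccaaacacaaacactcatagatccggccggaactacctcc
Among the members that fell with topotecan at 1 µM, 19 of 27 promoters (70.4%) held GGGCGG. Among those that rose 1 of 3 (33.3%) did, and among those not called 6 of 7 (85.7%). A match describes the letters of this window and not the binding of a factor.

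Some properties of the arrays touch the values that follow. The deposited columns fall into sets of different mean intensity: 571 to 577.3 for the ICRF-193 arrays and 682.3 to 698.3 for the topotecan arrays of the 3' type, and 137.8 to 143.7, 177.5 to 183.3 and 201.5 to 211 for sets of later gene-level arrays, so that each treatment was compared only with its own control. The shRNA groups are split over such sets, with replicate 1 in the middle set and replicates 2 and 3 in the dimmer one. In 25 of the 56 samples the description names a drug that the title does not, and groups follow the titles. Nothing in the labels says whether replicates were separate cultures, so p-values measure only the spread between these arrays. In RNA of a whole culture, fewer cells of a type and less RNA per cell cannot be told apart. The knocked-down genes themselves did not pass the test. Top1 was 8.10 ± 0.42 (SD, n = 3) with Top1 shRNA and 8.66 ± 0.28 (n = 3) with control shRNA on the log2 intensity scale, without overlap (limma adjusted p = 0.193). Against the control of the same number, and so within 1 array set, Top1 differed by -1.36 in replicate 1 and by -0.07 and -0.27 in replicates 2 and 3. Top2b was 7.43 ± 1.03 with Top2b shRNA and 8.62 ± 0.60 with control, with overlap over the 2 array sets (limma adjusted p = 0.220); against the control of the same number it differed by -0.68, -1.52 and -1.37.

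With topotecan at 1 µM most guidance receptors and many ligands fell. Of the 46 members 33 were lower and 4 higher (limma, Benjamini-Hochberg adjusted p under 0.05 over all 13308 genes tested), beside 20.8% of all genes lower and 18.3% higher. The median change of the members was -0.60 on the log2 intensity scale and that of all genes -0.01. Among the 32 members over 100 kb 28 fell and 1 rose (median -0.68), and among all genes over 100 kb 64.5% fell. Among the 14 shorter members 5 fell and 3 rose (median -0.03), and 13.2% of all genes up to 100 kb fell. All 5 slit and Robo members fell, as did 8 of 9 netrin members and 7 of 8 Eph receptors, while of the 6 ephrins 1 fell and 2 rose.

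**Figure D1:**
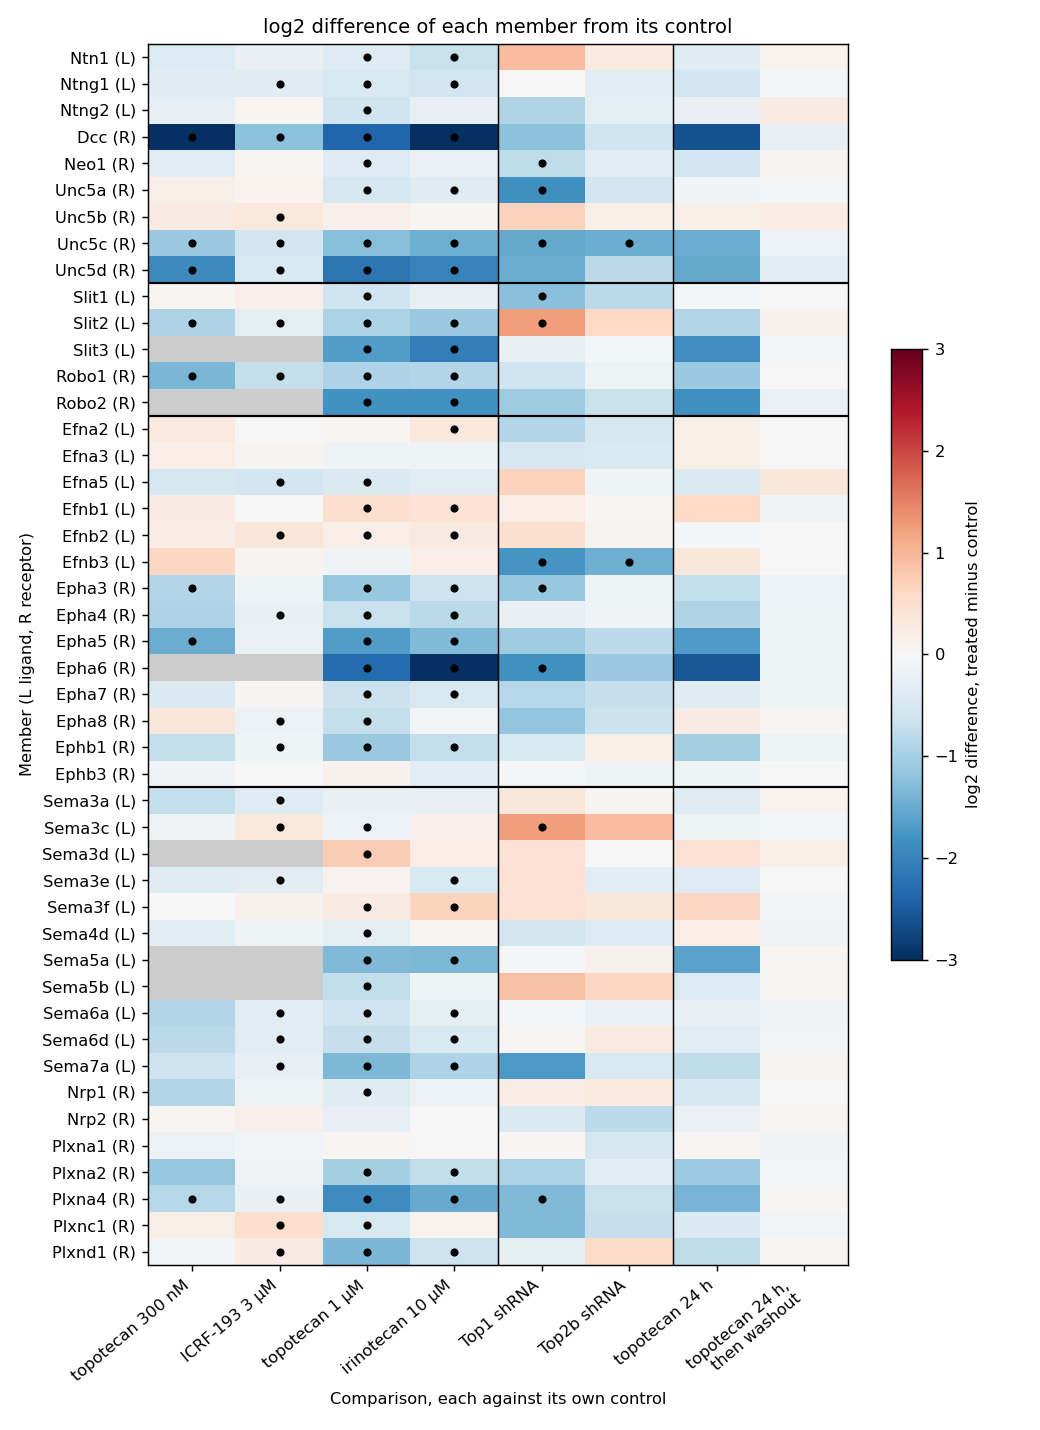
Log2 change of each member (rows, ordered within families) in each of 8 comparisons (columns), as a colour scale from -3 (blue) to 3 (red). A black dot marks a change that passed the test (adjusted p under 0.05 over all genes), and grey marks a member that was left out as dim or not on that array type. Dcc, Unc5d, Unc5c, Robo1, Slit2 and Plxna4 carry a dot and a negative value in all 4 drug comparisons of groups.

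Dcc, the receptor through which netrin attracts axons, had the largest change. Its log2 intensity in the 6 vehicle arrays ran from 7.72 to 8.79 with a median of 8.38, and in the 6 topotecan arrays from 5.57 to 6.24 with a median of 5.94. Every treated array lay below every vehicle array. The change was -2.38 ± 0.18 (SE), 5.21-fold lower (limma adjusted p = 1.98e-07).

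Unc5d and Unc5c are netrin receptors of the repulsive kind. Unc5d ran from 7.98 to 8.44 (median 8.32) in vehicle and from 5.91 to 6.52 (median 6.00) with topotecan, a change of -2.20 ± 0.11 (SE), 4.59-fold lower. Unc5c ran from 8.06 to 8.75 (median 8.46) and from 7.09 to 7.22 (median 7.16), a change of -1.28 ± 0.09 (SE). Neither gene's groups overlapped. Of the other netrin receptors, Unc5a (-0.54) and Neo1 (-0.38), a Dcc paralogue that also binds repulsive guidance molecules, fell, and Unc5b (0.16) did not pass. The 3 genes counted as ligands of the family fell. Ntn1, which encodes netrin-1, fell by 0.40, and the netrin-G genes Ntng2 and Ntng1 by 0.59 and 0.46 on the log2 scale.

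Robo1 and Robo2, the slit receptors, are among the longest members. Robo2 ran from 8.93 to 9.56 (median 9.44) in vehicle and from 7.20 to 7.78 (median 7.57) with topotecan, a change of -1.82 ± 0.12 (SE), 3.54-fold lower. Robo1 ran from 9.29 to 9.41 (median 9.34) and from 8.26 to 8.65 (median 8.39), a change of -0.93 ± 0.06 (SE). The slit ligands fell with their receptors: Slit3 changed by -1.67, Slit2 by -0.95 and Slit1, whose groups overlapped, by -0.60. Slit2 ran from 9.01 to 9.50 (median 9.23) in vehicle and from 8.07 to 8.54 (median 8.34) with topotecan, and its groups did not overlap.

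Eph receptors, the tyrosine kinases that bind ephrins on neighbouring cells, fell with the exception of Ephb3 (0.12, not passed). Epha6 ran from 7.16 to 8.45 (median 7.93) in vehicle and from 5.33 to 5.83 (median 5.61) with topotecan, a change of -2.32 ± 0.17 (SE), 4.98-fold lower. Epha5 ran from 8.87 to 9.30 (median 9.21) and from 7.26 to 7.82 (median 7.40), a change of -1.68 ± 0.10 (SE), 3.21-fold lower. Both were lower in every treated array than in any vehicle array. Epha3 (-1.14), Ephb1 (-1.11), Epha8 (-0.71), Epha4 (-0.66) and Epha7 (-0.65) fell as well, Epha8 with overlapping groups. The ephrins, their ligands, moved less. Efna5, the longest of them, fell by 0.43, Efnb1 rose by 0.49 and Efnb2 by 0.19, and Efna2, Efna3 and Efnb3 lay between -0.12 and 0.05 without passing. Efnb1, a transmembrane ephrin on the X chromosome, ran from 7.76 to 8.28 (median 8.01) in vehicle and from 8.37 to 8.65 (median 8.48) with topotecan. Its groups did not overlap, and the rise was 1.41-fold (limma adjusted p = 0.00037).

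Of the 7 neuropilins and plexins 5 fell. Plxna4, a receptor for class 3 and class 6 semaphorins, ran from 9.30 to 9.81 (median 9.69) in vehicle and from 7.53 to 8.06 (median 7.71) with topotecan, a change of -1.88 ± 0.10 (SE), 3.69-fold lower. Plxnd1, the receptor of Sema3e, ran from 9.20 to 9.91 (median 9.61) and from 7.83 to 8.53 (median 8.26), a change of -1.37 ± 0.13 (SE). The groups of both genes were apart, and Plxnd1 reached this change with a span of only 40.5 kb. Plxna2 (-0.98), Plxnc1 (-0.47) and Nrp1 (-0.37) fell, while Nrp2 (-0.24) and Plxna1 (0.05) did not pass. Among the 11 semaphorins 7 fell and 2 rose. Sema7a, a membrane-anchored semaphorin of 23.3 kb, fell by 1.34, Sema5a by 1.33, Sema5b by 0.75, Sema6d by 0.70 and Sema6a by 0.60. Sema3d ran from 4.87 to 5.27 (median 4.92) in vehicle, at the limit for dim genes of 5.01, and from 5.57 to 5.91 (median 5.76) with topotecan, a change of 0.75 ± 0.08 (SE) without overlap. Sema3f changed by 0.24, Sema4d by -0.26 and Sema3c by -0.18, all 3 past the test with overlapping groups, and Sema3a (-0.21) and Sema3e (0.10) did not pass.

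**Figure D2:**
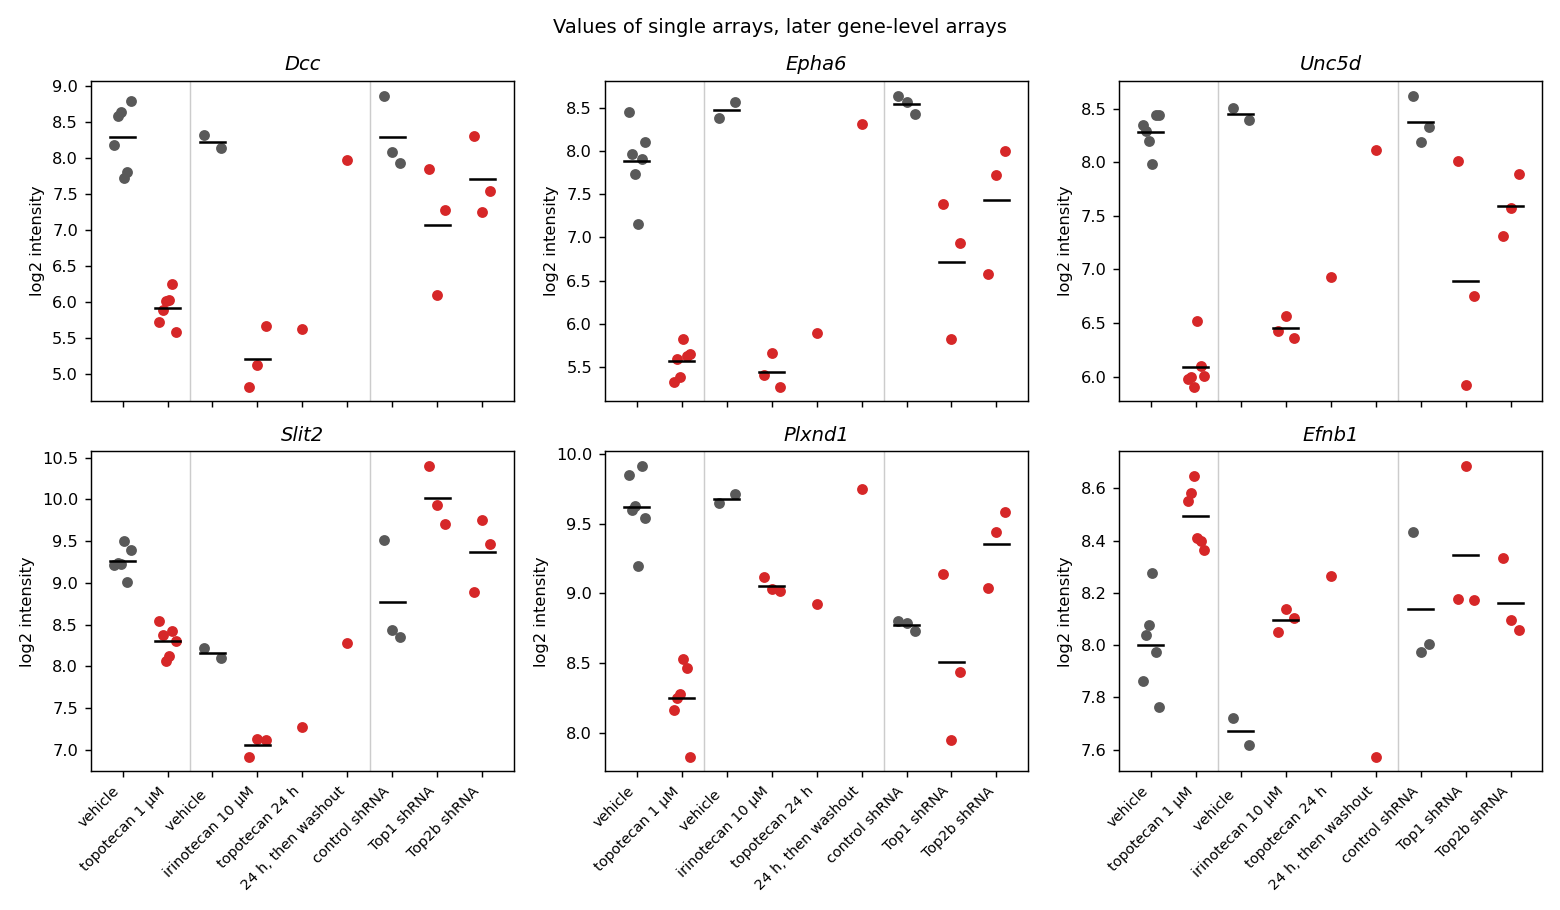
Log2 intensity (vertical axis) of Dcc, Epha6, Unc5d, Slit2, Plxnd1 and Efnb1 in each later gene-level array, by group along the horizontal axis; grey points are control arrays, red points treated arrays, and the line is the group mean. With topotecan at 1 µM and with irinotecan the treated points of the first 5 genes lie below all points of their vehicle and those of Efnb1 above them, while the washout array lies near its vehicle arrays.

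Genes around the members and markers of cell types were read on the same arrays. Of 23 other members of the same families that are not in the set, 6 fell and 5 rose (median -0.01). Of 48 intracellular effectors of guidance, such as kinases and collapsin response mediators, 27 fell and 3 rose (median -0.26). Of 9 astrocyte markers above the limit 8 fell. The summed intensity, which also takes in Gjb6 and S100b, was 2038 to 2285 in treated arrays and 4428 to 4912 in vehicle arrays. Gjb6 and S100b lay under the limit on these arrays as on the other array types. Of 7 interneuron markers 4 fell and 1 rose, with summed intensities of 1154 to 1756 against 3169 to 4586, whereas the sums of excitatory markers overlapped (1511 to 2399 against 1348 to 2440). All 6 pan-neuronal markers fell (10738 to 13540 against 13231 to 16614). Of 4 oligodendrocyte markers above the limit 2 fell, with sums of 350 to 463 against 496 to 615 (Mog, Pdgfra and Sox10 under the limit). Of 7 progenitor markers 4 fell and 1 rose, with overlapping sums (1265 to 1542 against 1279 to 1873). The part of these markers in the members' changes was not tested.

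Irinotecan at 10 µM, given here at a dose different from any of topotecan and measured on another set of arrays, also lowered many guidance receptors. Of 46 members 24 fell and 4 rose, beside 11.7% of all 13308 genes lower and 16.5% higher, with medians of -0.35 for the members and 0.07 for all genes. Of the members over 100 kb 21 of 32 fell and none rose (median -0.59), where 48.2% of all genes of that size fell, and of the shorter ones 3 fell and 4 rose (median -0.05), where 5.22% fell. The direction of the members stood against a background in which more genes rose than fell.

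Dcc was 4.82, 5.12 and 5.67 with irinotecan against 8.32 and 8.14 in vehicle, a change of -3.02 ± 0.22 (SE), 8.14-fold lower (limma adjusted p = 0.000154). Epha6 was 5.41, 5.66 and 5.28 against 8.38 and 8.56, a change of -3.02 ± 0.12 (SE), 8.12-fold lower. Unc5d was 6.43, 6.57 and 6.36 against 8.51 and 8.40, a change of -2.00 ± 0.09 (SE). These 3 receptors were the ones with the largest changes at 1 µM topotecan, and here too their groups did not overlap. Robo2 was 7.79, 7.91 and 7.79 against 9.67 and 9.62 (change -1.82 ± 0.08), and Slit2 was 6.91, 7.12 and 7.12 against 8.22 and 8.09 (change -1.11 ± 0.09). The ligand and its receptor were both lower in every treated array.

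Slit3 (-2.06), Plxna4 (-1.52), Unc5c (-1.47), Sema5a (-1.36), Epha5 (-1.32), Sema7a (-0.92) and Robo1 (-0.88) fell as well. Plxnd1 was 9.11, 9.03 and 9.02 with irinotecan and 9.64 and 9.71 in vehicle, a change of -0.62 ± 0.07. Of the ephrins 3 rose: Efnb1 by 0.43, Efna2 by 0.31 and Efnb2 by 0.27; of the semaphorins Sema3f rose by 0.66. Efnb1 was 8.05, 8.14 and 8.10 against 7.72 and 7.62, without overlap, and its call was lost without vehicle array 2 (limma adjusted p = 0.056). Of the other family members 3 of 23 fell and 9 rose, and of the effectors 19 of 48 fell and 2 rose. Astrocyte markers fell (4 of 9 lower, 1951 to 2082 against 2436 to 2826 in sum), as did interneuron markers (6 of 7 lower, 1410 to 1817 against 2837 to 3040). Excitatory neuron markers went the other way (1 of 8 lower and 3 higher, 2888 to 2999 against 2415 to 2443 in sum). Pan-neuronal sums were 14771 to 15024 against 15635 to 16609, with 1 of 6 markers lower. The part of these markers in the result was not tested.

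At 300 nM on the 3' arrays topotecan lowered 8 of the 40 members above the limit and raised none, beside 3.10% of all 10916 genes lower and 1.30% higher. The 8 were Dcc, Unc5d, Epha5, Robo1, Unc5c, Slit2, Epha3 and Plxna4, 7 receptors and 1 ligand, and each spans over 100 kb. The median change was -0.37 over the members and 0.06 over all genes. Over 100 kb the median of the 26 members was -0.77, where 18.5% of all genes were lower, and up to 100 kb that of the 14 members was 0.19, where 0.347% were lower.

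Dcc was 7.21, 6.38 and 6.41 with topotecan and 9.50, 9.65 and 9.96 in vehicle, a change of -3.03 ± 0.24 (SE; limma adjusted p = 0.00223); the treated mean of 6.67 lies under the limit of 7.04, so no fold is given. Unc5d was 8.68, 8.15 and 7.58 against 9.78, 10.11 and 10.24, a change of -1.90 ± 0.27. Epha5 was 10.86, 10.54 and 10.17 against 11.71, 12.01 and 12.30, a change of -1.48 ± 0.22. In all 3 genes each treated array lay below each vehicle array. Robo1 was 9.29, 9.43 and 8.89 against 10.45, 10.41 and 10.83 (change -1.36 ± 0.18). Of its 3 probe sets only 1 passed as lower, and their changes ran from -1.36 to 0.19. Unc5c was 8.65, 8.75 and 8.28 against 9.27, 9.76 and 10.00 (change -1.12 ± 0.22). Slit2 was 8.60, 8.64 and 8.46 against 9.23, 9.34 and 9.88 (change -0.91 ± 0.18). Plxna4 was 8.72, 8.85 and 8.40 against 9.37, 9.38 and 9.82 (change -0.87 ± 0.18), again without overlap, and Epha3 changed by -0.87. Of the 4 probe sets of Epha3 only 1 passed as lower, and their changes ran from -1.03 to 0.02. For Plxna4 1 of 2 probe sets passed as lower, with changes of -0.92 and -0.87.

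The calls at 300 nM rested on few arrays. Without topotecan replicate 1, 2 or 3 the members called were 5, 2 and 4, and without vehicle replicate 2 or 3 they were 1 and 5. Dcc was called in each of these fits. Plxna4 was lost without any 1 array, and Unc5c without any 1 array other than vehicle replicate 1. Plxna2 (-1.13) and Efnb3 (0.62) changed by more than several called genes without passing (limma adjusted p = 0.092 and 0.058). Plxnd1 was 10.60, 11.23 and 11.04 with topotecan against 10.47, 11.34 and 11.33, and its change of -0.09 turned to 0.09 without topotecan replicate 1. Of the other family members 1 of 21 fell, of the effectors 6 of 46 fell, and none of either list rose. Of 9 astrocyte markers 5 fell (21350 to 27560 in sum against 39082 to 47823), none of 8 interneuron markers fell, and all 7 endothelial markers lay under the limit. None of 8 fibroblast and meninges markers passed, but all 8 pointed down (median -0.75), with sums of 12942 to 22014 against 22677 to 42597. The sums of oligodendrocyte markers (1898 to 1985 against 2302 to 3137; Mog and Olig2 under the limit) and of progenitor markers (2513 to 3325 against 3395 to 5190; Eomes under the limit) were also lower without overlap. The part of these markers in the result was not tested.

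ICRF-193 at 3 µM lowered 16 of the same 40 members and raised 5, beside 10.3% of all 10916 genes lower and 8.29% higher. Its changes were smaller: the median was -0.13 over the members and 0.00 over all genes, and 2 of the 21 called members passed a 1.5-fold limit. Of the 26 members over 100 kb 14 fell and 2 rose, where 23.8% of all genes of that size fell, and of the 14 shorter ones 2 fell and 3 rose, where 7.89% fell.

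Dcc was 8.39, 8.44 and 8.41 with ICRF-193 and 9.65, 9.67 and 9.60 in vehicle, a change of -1.22 ± 0.04 (SE; limma adjusted p = 7.2e-06). Robo1 was 9.84, 9.78 and 9.72 against 10.44, 10.74 and 10.32, a change of -0.72 ± 0.10. Unc5c was 8.65, 8.58 and 8.54 against 9.20, 9.12 and 9.18, a change of -0.58 ± 0.04. Each group of these 3 receptors was apart from its vehicle. Unc5d was 9.25, 9.27 and 9.11 against 9.76, 9.80 and 9.44 (change -0.46 ± 0.10). Slit2 was 9.23, 9.21 and 9.11 against 9.61, 9.52 and 9.32 (change -0.30 ± 0.07). Both were lower in every treated array, but their calls were lost in several fits that left out 1 array, Unc5d without ICRF-193 replicate 2 or 3 or vehicle replicate 1 or 2, and Slit2 without any 1 array other than vehicle replicate 3. Plxna4 also fell (change -0.22), and its call was lost without ICRF-193 replicate 2 or 3, without vehicle replicate 1 or without a filter.

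Of the semaphorins 5 of 8 fell with ICRF-193, Sema3a (-0.39), Sema3e (-0.34), Sema6a (-0.33), Sema6d (-0.31) and Sema7a (-0.26). Sema3c rose by 0.31. Sema3a, the classical collapsing cue read through Nrp1 and plexins, passed the test in none of the other drug comparisons of groups. Efna5 fell by 0.57 and Ntng1 by 0.36. Plxnc1, the receptor of Sema7a, rose by 0.51, Efnb2 by 0.37 and Unc5b by 0.32. Plxnd1 was 10.46, 10.42 and 10.35 against 10.21, 10.15 and 10.13, a rise of 0.24 ± 0.04 (SE) without overlap, where topotecan at 1 µM and irinotecan lowered it on other arrays. Plxnc1 likewise rose here and fell with topotecan at 1 µM.

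Same-numbered ICRF-193 and vehicle arrays deviated together, and with the replicate number as a block 24 members were called (18 lower, 6 higher), 21 of them shared with the fit without it, beside 13.8% of all genes lower and 12.7% higher; Epha5 (-0.20, adjusted p = 0.0663) passed with the block (limma adjusted p = 0.0161). Without ICRF-193 replicate 2 or 3 the count was 12 and 11, and without ICRF-193 replicate 1, vehicle replicate 1 or vehicle replicate 2 it was 14, 14 and 13. Of the other family members 2 of 21 fell and 3 rose, and of the effectors 8 of 46 fell and none rose. Of the 9 astrocyte markers 8 fell (24750 to 27555 against 33379 to 37680 in sum). Of 8 excitatory neuron markers 2 fell and 4 rose (11340 to 12112 against 10274 to 11011 in sum). Of 8 interneuron markers 2 fell and 3 rose (6197 to 6475 against 6693 to 6938 in sum). The part of these markers in the result was not tested.

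Whether topotecan (300 nM) moved a member more than ICRF-193 (3 µM) did was tested on the 3' arrays as a difference of changes, each taken to its own vehicle. The difference passed for 3 of 40 members, all more negative with topotecan, beside 2.41% of all genes more negative and 1.19% more positive. They were Dcc (-1.81 ± 0.27 SE, limma adjusted p = 0.00597), Unc5d (-1.44 ± 0.32, adjusted p = 0.0351) and Epha5 (-1.28 ± 0.24, adjusted p = 0.0183). For Dcc the treated topotecan mean lies under the limit. The difference for Dcc passed in each fit without 1 array, while Unc5d was lost without any 1 of the ICRF-193 arrays or their vehicle arrays, and without topotecan replicate 2 or vehicle replicate 2 or 3 of topotecan. Epha5 was lost without ICRF-193 replicate 1 or 2 or vehicle replicate 2 or 3 of ICRF-193. The count was 1 in each of the latter 4 fits, 6 without topotecan replicate 1 and 11 without the first vehicle array of topotecan. The median difference was -0.32 over the members and 0.06 over all genes.

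**Figure D3:**
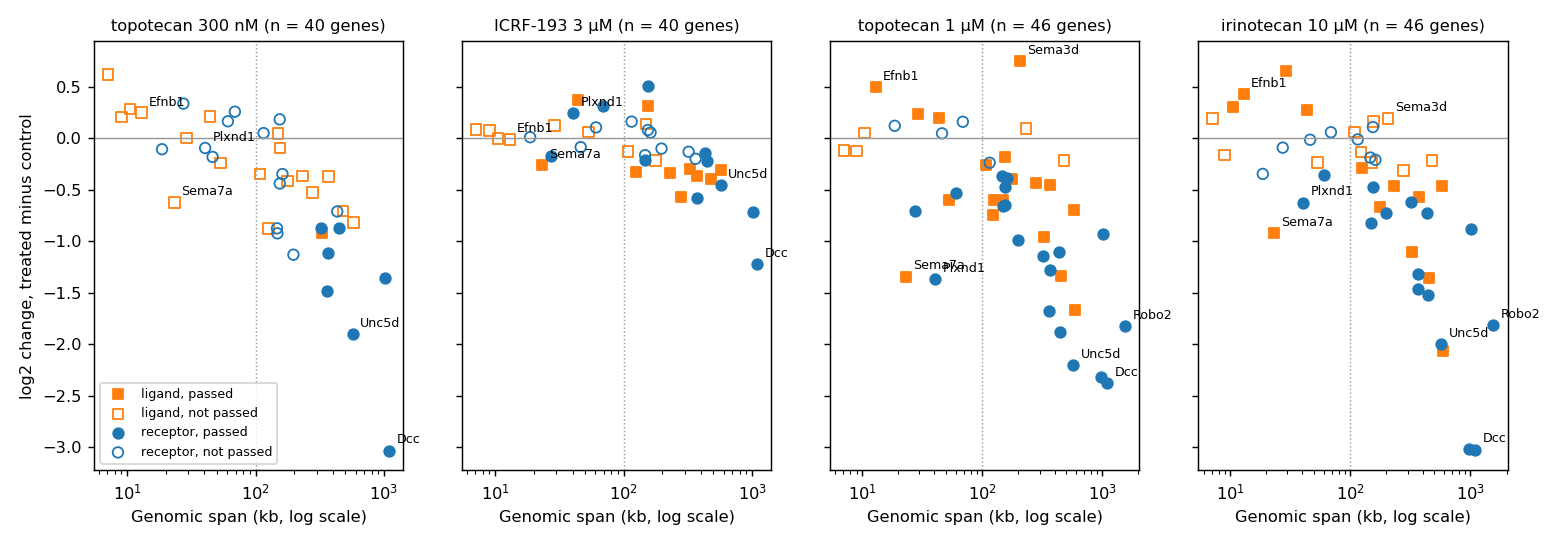
Log2 change (vertical axis) of each member against its annotated span in kb (horizontal log axis) for topotecan at 300 nM, ICRF-193 at 3 µM, topotecan at 1 µM and irinotecan at 10 µM; squares are ligands, circles receptors, filled symbols passed the test, and the dotted line stands at 100 kb. In all 4 panels members over 100 kb reach lower values than shorter members, with the lowest point being Dcc.

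The size of a member's change went with its span. Across the members Spearman's rank correlation between span and change was -0.77 (n = 40 genes) for topotecan at 300 nM, -0.64 (n = 40) for ICRF-193, -0.61 (n = 46) for topotecan at 1 µM and -0.72 (n = 46) for irinotecan. Over all genes tested it was -0.38, -0.09, -0.35 and -0.26. These are correlations across genes of the same arrays, which are no independent replicates and share intensity and probe effects, and they are given as a description. Exceptions stood on both sides. Sema7a (23.3 kb) and Plxnd1 (40.5 kb) were short and fell with topotecan at 1 µM and with irinotecan. Sema3a (478.7 kb), Sema3e (231.4 kb) and Nrp2 (115.4 kb) were long and did not pass with topotecan at 1 µM. Sema3d (205.8 kb), at the limit for dim genes in vehicle, was long and rose by 0.75 at that dose.

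In the dose series most doses had 1 array, so the slope of log2 intensity over the rank of the dose was tested over all 10 arrays. It passed for 5 of 44 members, all falling, beside 1.95% of all 11292 genes falling and 1.51% rising. These were Epha6 (-0.26 ± 0.05 SE per dose rank), Unc5d (-0.20 ± 0.04), Slit3 (-0.17), Slit2 (-0.14 ± 0.02) and Sema5a (-0.10), and each spans over 100 kb. With the log10 of the dose in place of its rank, Epha6 (limma adjusted p = 0.0728) and Unc5d (limma adjusted p = 0.0867) did not pass.

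By their expression values the 10 arrays fall into 2 sets, the 1000 nM array with vehicle arrays 1 and 2, and the other 7 arrays; this is a split by the values and not a known batch. The split touches Dcc in particular. Dcc was 8.90, 8.94 and 10.43 in the 3 vehicle arrays, 10.14 at 3 nM, 10.15 at 30 nM, 9.24 at 150 nM, 8.92 and 8.97 at 300 nM, 8.48 at 500 nM and 7.11 at 1000 nM. The treated arrays up to 150 nM thus lay above 2 of the vehicle arrays, and the slope over all 10 arrays did not pass.

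Against the mean of the 3 vehicle arrays, the members lower by at least 1 log2 unit numbered 1 at 3 nM (Sema5b), 0 at 30 nM, 2 at 150 nM (Ntn1 and Sema5b), 2 and 1 at 300 nM, 1 at 500 nM (Ntn1) and 8 at 1000 nM. The share of all genes lower by as much was 2.33% at 3 nM, 3.10% at 30 nM, 3.66% at 150 nM, 3.77% and 3.28% at 300 nM, 3.81% at 500 nM and 2.17% at 1000 nM. Up to 500 nM the members' counts of 0 to 2 of 44 thus lay near that background, and at 1000 nM they were Dcc (-2.32), Epha6, Unc5d, Slit3, Robo2, Epha5, Plxna4 and Sema7a.

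The arrays were also read within the sets, a choice made after seeing the values, in which the doses up to 500 nM rest on vehicle array 3 alone. Against that array Dcc differed by -0.28 at 3 nM, -0.28 at 30 nM, -1.19 at 150 nM, -1.51 and -1.46 at 300 nM and -1.95 at 500 nM, and against vehicle arrays 1 and 2 by -1.81 at 1000 nM. Vehicle array 3 itself lay over 1 log2 unit above the other vehicle arrays for Dcc, and against the mean of all 3 Dcc was 0.72 at 3 nM and 30 nM, -0.19 at 150 nM, -0.50 and -0.45 at 300 nM and -0.95 at 500 nM. Read within the sets in the same order, Epha6 gave -0.11, -0.09, -0.54, -0.70, -0.64 and -1.07, and -2.06 at 1000 nM. Slit2 gave -0.24, -0.23, -0.71, -0.71, -0.89 and -1.01, and -0.62 at 1000 nM. Efnb1, the ephrin that rose at 1 µM on the later arrays, gave 0.17, 0.21, 0.34, 0.43, 0.59 and 0.58, and 0.56 at 1000 nM. Robo1 lay between 0.00 and 0.14 up to 500 nM and at -0.28 at 1000 nM, with no fall up to 500 nM in these single arrays. On the 3' arrays Robo1 was lower at 300 nM, in 1 of its 3 probe sets.

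In this reading the members lower by at least 1 log2 unit numbered 0 at 3 nM and 30 nM (0% of all genes at both), 1 at 150 nM (Dcc; 0.0974% of all genes), 1 in each array at 300 nM (Dcc; 0.230% and 0.213%), 4 at 500 nM (Dcc, Epha6, Robo2 and Slit2; 0.602%) and 8 at 1000 nM (2.78%). Without the 1000 nM array and vehicle arrays 1 and 2 the slope passed for 21 of 44 members, 14 falling and 7 rising, beside 5.34% of all genes falling and 4.64% rising. Among them were Dcc (-0.41 per dose rank, limma adjusted p = 0.00137) and Efnb1 (0.12, adjusted p = 0.00274), and 4 of the 21 were among the 5 above. Markers moved with the split and within it. Summed astrocyte markers were 4967 to 17930 in vehicle, 5960 at 3 nM, 5260 at 30 nM, 4354 at 150 nM, 4147 and 4416 at 300 nM, 3593 at 500 nM and 8988 at 1000 nM. Progenitor markers were 940 to 5321 in vehicle, 950 to 1181 from 3 to 500 nM and 3323 at 1000 nM. Their part in the members' values was not tested.

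**Figure D4:**
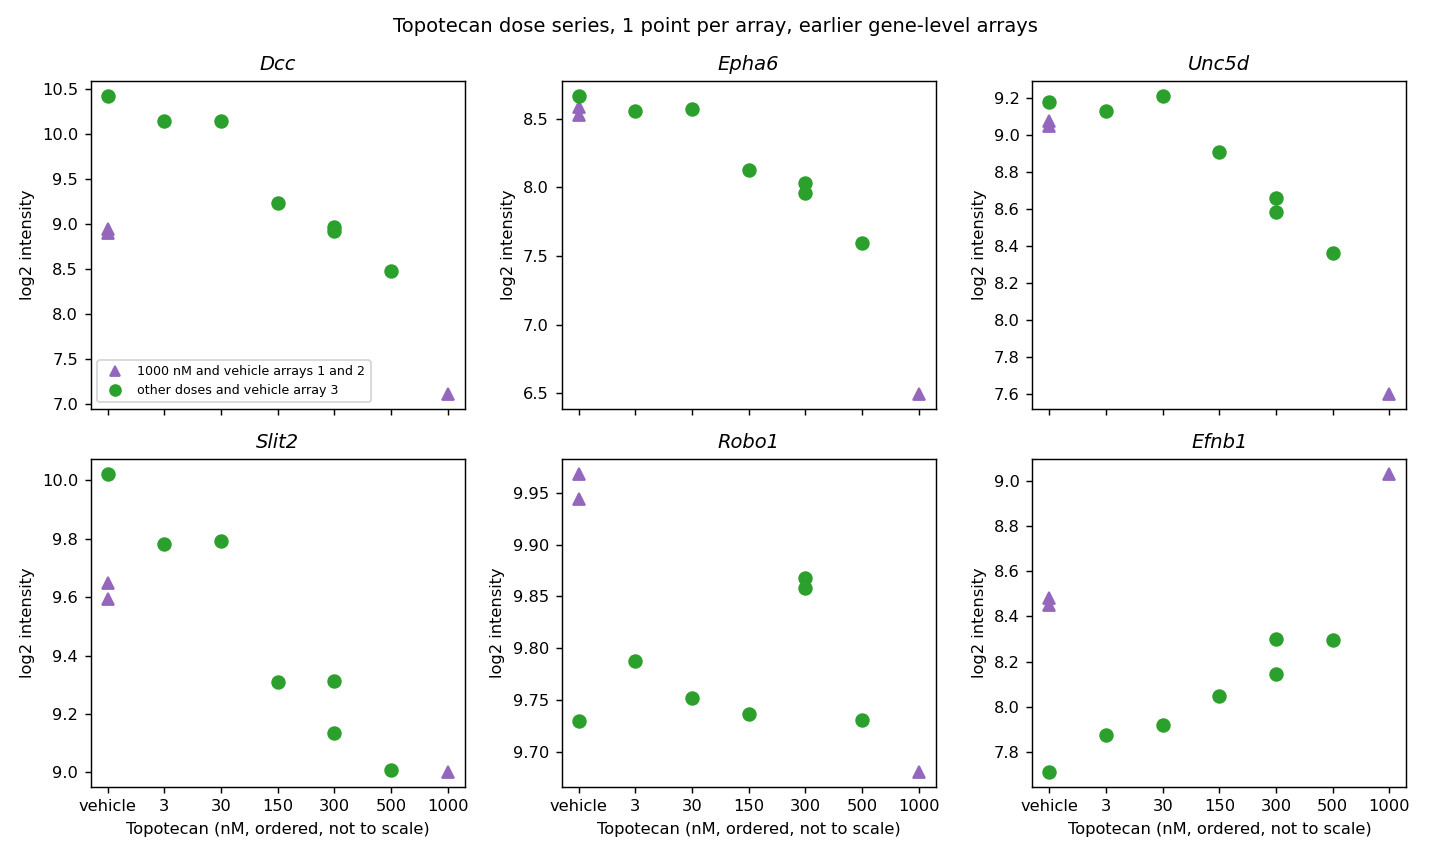
Log2 intensity (vertical axis) of Dcc, Epha6, Unc5d, Slit2, Robo1 and Efnb1 against the topotecan dose in nM (horizontal axis, doses evenly spaced, vehicle at the left); purple triangles are the 1000 nM array and vehicle arrays 1 and 2, green circles the other 7 arrays. Within the green circles Dcc declines from 10.43 in vehicle to 8.48 at 500 nM, and Robo1 shows no decline.

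Topotecan for 24 h was a single array and was not tested. Of 46 members 11 were lower by at least 1 log2 unit and 0 higher, beside 2.32% of all genes lower and 0.406% higher. Dcc differed by -2.61, Epha6 by -2.58, Slit3 by -1.86, Robo2 by -1.83, Epha5 by -1.70, Sema5a by -1.61, Unc5d by -1.53, Unc5c by -1.50, Plxna4 by -1.40, Robo1 by -1.12 and Plxna2 by -1.08. All 11 span over 100 kb, and the median difference was -0.57 over members above 100 kb and 0.12 over the shorter ones. The median was 0.08 over all genes and -0.27 over all genes above 100 kb. Sema3f (0.62) and Efnb1 (0.60) stood at the other end. After washout no member differed by 1 log2 unit, beside 0.0225% of all genes lower and 0.0225% higher. The differences ran from -0.34 to 0.34 with a median of -0.02. Dcc was 5.61 at 24 h, 7.97 after washout and 8.32 and 8.14 in vehicle, and Epha6 was 5.89, 8.31, and 8.38 and 8.56. These arrays and irinotecan share the 2 vehicle arrays, which differed from each other by -0.35 to 0.27 over the members.

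DRB, the elongation inhibitor, gave another pattern in its single array. Of the 46 members 13 were lower and 4 higher by at least 1 log2 unit, beside 18.8% of all genes lower and 6.07% higher. The lowest were Unc5a (-2.30), Slit3 (-1.57), Nrp1 (-1.49) and Epha8 (-1.38), and the highest Efna5 (1.47), Unc5c (1.39), Efnb2 (1.12) and Sema6a (1.12). Dcc was 9.56 with DRB and 8.79 in vehicle, and the median difference was 0.05 for members over 100 kb and -0.60 for shorter ones. The median was -0.34 over all genes and -0.47 over all genes above 100 kb. Efna5 and Unc5c, both lower with topotecan at 1 µM, were thus among the highest here; the comparison has 1 array on each side and was not tested. Summed astrocyte markers were 1121 with DRB and 5252 in vehicle, oligodendrocyte markers 215 and 549 (Mog, Pdgfra and Sox10 under the limit), and progenitor markers 448 and 1142, while pan-neuronal markers were 20559 and 20156. Their part in the members' differences was not tested.

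The 2 vehicle arrays of the oxidant experiment stood apart from each other, by at least 1 log2 unit for 14 of 46 members (from -1.38 to 2.37) and 16.7% of all genes. Against their mean, hydrogen peroxide gave 0 members lower and 1 higher (Slit1, 1.16), beside 1.01% and 1.66% of all genes, and paraquat gave 0 lower and 1 higher (Epha8, 1.10), beside 1.67% and 3.47%. Against vehicle array 1 alone 6 members were lower and 7 higher with hydrogen peroxide, beside 5.30% and 8.14% of all genes, and 2 lower and 7 higher with paraquat, beside 7.20% and 12.4%. Against vehicle array 2 alone 1 was lower (Epha6, -1.11) and none higher with hydrogen peroxide, beside 0.879% and 1.17%, and none either way with paraquat, beside 0.451% and 0.924%. Slit1 was 7.14 and 8.59 in vehicle and 9.03 with hydrogen peroxide, and Epha6 was 7.21 and 9.09 in vehicle. Summed marker intensities also differed between these vehicle arrays, at 1382 and 3603 for excitatory neurons, 11616 and 21461 for pan-neuronal markers, and 1517 and 3476 for fibroblasts and meninges. Dcc differed by no more than 0.17 from either vehicle array with either oxidant.

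With Top1 shRNA 8 of 46 members fell and 2 rose, beside 5.79% of all genes lower and 6.08% higher, and with Top2b shRNA 2 fell and none rose, beside 1.12% lower and 1.99% higher. Both comparisons share the 3 control arrays, and their fits held no term for the array set. The medians over the members were -0.44 and -0.28, against -0.02 and -0.04 over all genes. The members that fell with Top1 shRNA were Unc5a (-1.85), Epha6 (-1.83), Efnb3 (-1.78), Unc5c (-1.53), Plxna4 (-1.32), Slit1 (-1.25), Epha3 (-1.14) and Neo1 (-0.77), and those that rose were Slit2 (1.25) and Sema3c (1.25). With Top2b shRNA Unc5c (-1.48) and Efnb3 (-1.47) fell.

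Efnb3, the shortest member and a ligand of EphB receptors, was 8.99, 9.84 and 9.92 with control shRNA, 8.36, 7.38 and 7.67 with Top1 shRNA and 8.00, 8.18 and 8.15 with Top2b shRNA. Both knockdown groups lay below the control group (limma adjusted p = 0.0088 and 0.04). With the 4 drug comparisons of groups Efnb3 lay between -0.12 and 0.62 and did not pass. Unc5c was 9.56, 8.81 and 8.67 with control, 7.71, 7.36 and 7.37 with Top1 shRNA and 8.12, 7.18 and 7.28 with Top2b shRNA. Unc5c was thus lower in both knockdowns and with all 4 drug treatments measured in groups. With Top1 shRNA its call was lost without Top1 shRNA replicate 2 or 3. With Top2b shRNA the call was lost without any 1 control array, Top1 shRNA replicate 2 or 3, or Top2b shRNA replicate 2 or 3. At 300 nM topotecan it was lost in most fits without 1 array. Slit2 was 9.51, 8.44 and 8.35 with control, 10.40, 9.94 and 9.71 with Top1 shRNA and 8.89, 9.76 and 9.46 with Top2b shRNA. It was higher in every Top1 shRNA array than in any control array, where the drugs lowered it. Its call with Top1 shRNA was lost without control replicate 2 or 3, any 1 Top1 shRNA array, or Top2b shRNA replicate 2 or 3. The Slit2 call was also lost without a filter and with the mean of probe sets.

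Epha6 was 8.64, 8.56 and 8.42 with control, 7.39, 5.82 and 6.94 with Top1 shRNA and 6.58, 7.72 and 8.00 with Top2b shRNA. Dcc was 8.87, 8.08 and 7.93 with control, 7.84, 6.09 and 7.28 with Top1 shRNA and 8.31, 7.25 and 7.54 with Top2b shRNA. Dcc overlapped no control array with Top1 shRNA but did not pass over all replicates (-1.22, limma adjusted p = 0.11). With the array set as a block Dcc passed (limma adjusted p = 0.0115), as did Robo2 (-1.07, 0.00561), Unc5d (-1.49, 0.0225), Epha5 (-1.07, 0.0233) and Robo1 (-0.60, 0.0304). Across the members the change did not go with span as it did with the drugs (Spearman's rank correlation -0.06 with Top1 shRNA and -0.04 with Top2b shRNA, n = 46 genes; -0.09 and -0.07 over all genes). Of the 14 shorter members 2 fell with Top1 shRNA, and their median was -0.38.

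Between the knockdowns no member and 0% of all genes lower and 0% higher passed the limma test, while 6 members and 6.06% of all genes had an unadjusted p under 0.05. Same-numbered arrays of the knockdowns deviated together, but so did Top1 replicate 3 and Top2b replicate 2 (correlation 0.42), which share an array set. With the replicate number as a block the count between the knockdowns was also 0. On replicates 2 and 3 alone, which lie in 1 array set, 14 members were lower and 3 higher with Top1 than with Top2b shRNA, beside 7.75% of all genes lower and 6.43% higher, among them Plxnd1 (-1.32, limma adjusted p = 0.0109), Unc5d (-1.40, 0.0229), Epha6 (-1.48, 0.0326) and Plxna4 (-0.99, 0.0475). Comparing replicates with the control of the same number, 23 members were lower and 6 higher in all 3 Top1 shRNA arrays, beside 27.2% and 25.6% of all genes. With Top2b shRNA 19 were lower and 6 higher in all 3, beside 30.8% and 24.4%. Same-numbered Top2b and control arrays deviated together. Replicates 2 and 3 did so across numbers too (correlations 0.40 and 0.31), so number and array set cannot be told apart here. With the replicate number as a block 3 members were called with Top2b shRNA, 2 lower and Sema3c higher. Of all genes 4.58% were lower and 5.58% higher in that fit.

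The knockdown counts moved with single arrays and with the array set. Without control replicate 2 or 3 the Top1 shRNA count was 2 in each case, without Top1 shRNA replicate 1, 2 or 3 it was 17, 1 and 2, and on replicates 2 and 3 alone it was 35 (25 lower, 10 higher), beside 24.5% of all genes lower and 20.1% higher. Top1 itself was the least lowered in those 2 replicates. The Top2b shRNA count was 0 without control replicate 2 or 3, Top1 shRNA replicate 3 or Top2b shRNA replicate 2 or 3, 1 without Top1 shRNA replicate 2, and 13 (8 lower, 5 higher) on replicates 2 and 3 alone, beside 12.5% of all genes lower and 10.1% higher. Markers of cell types moved with the knockdowns. The summed intensity of excitatory neuron markers was 2361 to 3348 with control, 781 to 1335 with Top1 shRNA and 1245 to 1526 with Top2b shRNA. That of pan-neuronal markers was 15476 to 15900, 8045 to 11290 and 9396 to 13389, and that of fibroblast and meninges markers 626 to 1099, 1831 to 3263 and 1500 to 2115. In the same order interneuron sums were 2468 to 4848, 1086 to 1603 and 1609 to 2907 (Vip under the limit). Progenitor sums were 535 to 676, 1308 to 1926 and 752 to 2656. With Top1 shRNA 5 of 8 excitatory and 2 of 7 interneuron markers fell, and 6 of 7 fibroblast and 1 of 7 progenitor markers rose. The part of these markers in the members' changes was not tested. Of the other family members 5 of 23 fell and 3 rose with Top1 shRNA, and none fell and 2 rose with Top2b shRNA; of the effectors 2 of 48 fell and 2 rose with Top1 shRNA, and none passed with Top2b shRNA.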

How the data were processed

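Per the submitters' processing notes, Expression Console of Affymetrix and RMA were used; their versions, and which arrays were normalized together, are not given in the sources used here. The authors deposited 1 intensity per probe set on a linear scale. Log2 was taken here, and every change is in log2 of the deposited intensity. Probe sets that name 1 gene symbol in the platform annotation were used. Where a gene had several, the one with the highest mean over the arrays of its type, treated arrays included, was kept. Genes under the 40th percentile of that mean were left out (limits 7.04, 6.02 and 5.01 for the 3', earlier and later gene-level arrays), so a gene could pass through the group where it is high.

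Fits used limma 3.58.1 in R 4.3.3 (lmFit, eBayes, 2-sided, Benjamini-Hochberg over all genes tested, threshold 0.05) and took the arrays of 1 experiment at a time, with the 3 shRNA groups together; scripts were tested on simulated data. Tables were drawn up in Python 3.11.15. Single arrays were not tested, and differences of at least 1 on the log2 scale were counted. The number of arrays limits the precision. Members, gene lists and alternatives were chosen with earlier results of these data known. Up to 12 members are given array by array: those with the largest changes or rises past the threshold with topotecan, and members called in opposite directions by different treatments. Spans come from RefSeq genes of GRCm38.p6.

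Same-numbered arrays were taken as paired where the correlation of their deviations from the group means exceeded 0.1 for every number. This held for ICRF-193 (0.38, 0.23 and 0.38), for Top2b and control shRNA (0.45, 0.39 and 0.35) and for Top1 and Top2b shRNA (0.44, 0.20 and 0.32), and not for the other comparisons. In these shRNA pairs replicates 2 and 3 of different number, which share an array set, also correlated, by up to 0.42. The rule therefore does not show pairing by number there. Alternatives were other rules for probe sets, filters, normalization, variance models, blocks and leaving out arrays.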

Additional observations from a re-analysis of the deposited data

Results flagged for a closer look

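Topotecan at 1 µM and its vehicle are the 2 groups of 6 arrays, and each of the 46 members was examined in both. In 8 of these 92 cases 1 array lay far from the other 5; chance gives about 1 in 20 for a single gene, and the members share the same 12 arrays, so the cases are not independent. Vehicle replicate 4 accounts for 4 of the 8. In the vehicle arrays of topotecan at 1 µM replicate 4 was the lowest for Plxna4 (9.30, next 9.62), Robo2 (8.92, next 9.34), Slit1 (7.75, next 8.23) and Unc5a (7.68, next 8.18) on the log2 intensity scale. Replicate 1 was the highest for Plxnc1 (9.75, next 9.59) and replicate 5 the lowest for Sema3e (6.54, next 6.74). Among the topotecan arrays replicate 4 was the highest for Unc5d (6.52, next 6.10) and replicate 5 the highest for Efna3 (9.56, next 9.44).

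The effect of topotecan at 300 nM differed from that of ICRF-193 at 3 µM, by a limma contrast of the 4 groups, for Dcc (-1.81, adjusted p = 0.00597), Epha5 (-1.28, adjusted p = 0.0183) and Unc5d (-1.44, adjusted p = 0.0351). All 3 receptors were lower in 3 of 3 arrays with topotecan and lower in 3 of 3 with ICRF-193 than the mean of their own vehicle.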

How the results depend on the processing

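The counts for topotecan at 1 µM (34 to 37 with 1 array left out, 37 with all) and irinotecan (22 to 27, against 28) stayed within 1.5 times under every alternative run. With 1 array left out the members called ranged from 1 to 9 for topotecan at 300 nM (90 to 498 of all genes), 11 to 22 for ICRF-193 (885 to 2822), 1 to 17 for Top1 shRNA (450 to 2486), 0 to 2 for Top2b shRNA (0 to 582), 0 to 0 between the knockdowns, 1 to 11 for topotecan against ICRF-193 (136 to 1048) and 4 to 5 for the dose trend (205 to 398). With the replicate number as a block none of 8 remained for topotecan at 300 nM (0) and 0 of 3 for topotecan against ICRF-193, where the topotecan numbers do not pair the arrays, and 20 passed with Top1 shRNA; 23 passed for irinotecan. A 1.5-fold limit left 2 for ICRF-193 and 0 for the dose trend. Without a filter 4 passed with Top1 shRNA and 0 with Top2b shRNA. With the array set as a block 23 and 7 passed, and on replicates 2 and 3 alone 35, 13 and, between the knockdowns, 17. Where no share of all genes is given for a count, it shows dependence on the processing and is no result about the members. The mean of probe sets gave 5 for topotecan against ICRF-193. The log10 of the dose gave 2 for the trend, and 21 passed without 1000 nM and vehicle arrays 1 and 2. Chosen after seeing the data, single vehicle arrays gave 1 or 13 members past 1 log2 unit for hydrogen peroxide, 0 or 9 for paraquat and 11 or 12 for topotecan at 24 h; within the sets of the dose series 0 members were lower by 1 log2 unit at 3 nM in place of 1, 1 at 150 nM and in the first 300 nM array in place of 2, and 4 at 500 nM in place of 1. Over 680 refits of called members given array by array 92 lost the call and 0 changed sign; over 790 refits of those not called 48 passed and 22 changed sign. The latter, in fits without 1 array unless stated, were Plxnd1 at 300 nM (range -0.38 to 0.085) and with Top1 shRNA (-0.58 to 0.011), Efnb1 with ICRF-193 (-0.057 to 0.023, and 0.013 with quantile normalization) and with Top2b shRNA (-0.058 to 0.17), Robo1 with Top2b shRNA (-0.28 to 0.073, and 0.040 on replicates 2 and 3 alone), Sema3d with Top2b shRNA (-0.29 to 0.51, and 0.51 on replicates 2 and 3), and between the knockdowns Unc5c (-0.22 to 0.25, and 0.13 on replicates 2 and 3) and Epha5 (-0.51 to 0.00028). Robo1 changed sign for topotecan against ICRF-193 with the mean of probe sets (0.021) and in the dose trend without 1000 nM and vehicle arrays 1 and 2 (0.012). The causes were not tested.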
